A study of Mus musculus with 12 samples.

Results

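The genes described here were the receptors for the constant (Fc) part of IgG, their signaling adaptors and the kinase those adaptors recruit. They comprised the 4 Fc gamma receptors Fcgr1, Fcgr2b, Fcgr3 and Fcgr4, the adaptors Fcer1g and Tyrobp, the receptor Trem2 and the kinase Syk. The 8 genes were chosen by name from the platform annotation, with every probe set that carried one of them as its single gene symbol, which gave 17 of the 45037 probe sets on the array and 8 of the 18193 genes that had a probe set of their own. A probe set is a group of short array probes read together as 1 value, its signal, on a linear scale.

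The arrays measured total RNA from cultures of bone marrow mesenchymal stem/stromal cells (MSCs) of C57BL6/J mice, 6 weeks old and labelled male. MSCs were purified as Sca-1 and PDGFR-α positive cells, and the gate in the study's methods was negative for the blood cell marker CD45. In the co-culture group (6 arrays) they had been cultured with hematopoietic stem/progenitor cells (HSCs), marked by Sca-1 and c-Kit without lineage markers, and taken at 6 days. In the MSC-only group (6 arrays, control) they had been cultured alone. The comparison asked what HSCs change in MSCs. The labels do not say whether HSCs touched the MSCs or sat on an insert for these arrays, nor plainly whether blood cells were sorted away before RNA was extracted, so the RNA may not be from MSCs alone. They also do not say which arrays share a mouse, so p-values measure only the spread between these samples.

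Fc gamma receptors bind antibody-coated particles on phagocytes. Fcgr1, Fcgr3 and Fcgr4 are activating receptors that signal through the adaptor Fcer1g, the common Fc receptor gamma chain, whereas Fcgr2b carries an inhibitory motif of its own. Tyrobp, also called DAP12, is the matching adaptor for Trem2, a lipid and lipoprotein receptor of macrophages, microglia and osteoclasts. Both adaptors carry an immunoreceptor tyrosine-based activation motif (ITAM), which recruits Syk once it is phosphorylated. The Fc gamma receptors, both adaptors and Trem2 are known for expression in macrophages and related blood cells rather than in stromal cells.

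The DNA just upstream of these genes is shown because several of them share a short element there. GAGGAA, or TTCCTC on the opposite strand, is the core of the site that PU.1 binds, an ETS factor of myeloid and B cells. RefSeq windows (build GRCm38.p6, 250 bases before to 50 after a gene's start) were given for 7 of the 8 genes, and 5 of those 7 genes held the 6 letters on either strand in at least 1 window, against 31.3% of the 27025 genes with a window. A match describes these letters only. The 100 bases before the start are printed 5′ to 3′ along each gene, with the match in capitals, first for 4 receptors that held it and then for 2 genes that did not.
Fcgr1: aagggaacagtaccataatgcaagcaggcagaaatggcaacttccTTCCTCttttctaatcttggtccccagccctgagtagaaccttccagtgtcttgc
Fcgr3: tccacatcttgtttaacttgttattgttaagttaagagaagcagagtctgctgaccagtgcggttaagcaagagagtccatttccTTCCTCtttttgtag
Fcgr4: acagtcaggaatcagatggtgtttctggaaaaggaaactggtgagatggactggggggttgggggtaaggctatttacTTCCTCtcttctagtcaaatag
Trem2: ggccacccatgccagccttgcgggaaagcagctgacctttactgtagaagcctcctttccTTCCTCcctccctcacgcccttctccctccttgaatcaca
Fcgr2b: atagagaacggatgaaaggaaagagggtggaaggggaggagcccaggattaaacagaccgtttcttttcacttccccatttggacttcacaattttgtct
Fcer1g: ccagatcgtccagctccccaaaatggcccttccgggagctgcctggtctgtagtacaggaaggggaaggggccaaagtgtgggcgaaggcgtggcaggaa

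These stretches lie at chr3:96293970-96294069 on the minus strand for Fcgr1, chr1:171059395-171059494 on the minus strand for Fcgr3, chr1:171018826-171018925 on the plus strand for Fcgr4 and chr17:48346301-48346400 on the plus strand for Trem2. Those of Fcgr2b (chr1:170976072-170976171) and Fcer1g (chr1:171234350-171234449) are on the minus strand. Fcgr3 had a second window that overlaps the one shown, and 1 of the 2 windows of Syk also held the letters. Fcgr2b, Fcgr4 and Fcgr3 stood side by side on chromosome 1 with 0 other protein-coding genes between neighbours, and 7 protein-coding genes separated Fcgr3 from Fcer1g. The other members were on chromosomes 3 (Fcgr1), 7 (Tyrobp), 13 (Syk) and 17 (Trem2).

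Some features of the whole series bear on every value below. Blood cell markers were bright in both groups despite the CD45-negative gate. Ptprc, which encodes CD45, lay between 10424.9 and 13143.5 in MSC-only arrays and between 11519.0 and 12641.8 in co-culture arrays. The summed signal of 15 macrophage and monocyte markers ranged from 228789 to 310998 in MSC-only arrays and from 237481 to 299828 in co-culture arrays, and Ccr2 was the 1 marker of this list with a mean signal under 50. The summed signal of 14 stromal markers ranged from 22617 to 47317 in MSC-only arrays and from 20629 to 45423 in co-culture arrays. Of these, Pdgfra lay between 406.9 and 1464.4 over both groups and Col1a2, the brightest, between 9676.8 and 20612.1. Xist, the X-inactivation RNA, lay between 13135.8 and 21977.5 on all 6 co-culture arrays and on MSC-only arrays 3 and 4, while the Y-linked Eif2s3y read at most 13.6 on the 4 arrays numbered 3 and 4, both of which go against a male label. Co-culture arrays 1, 2, 5 and 6 carried both signals, with Eif2s3y at 1021.6 to 1330.9 against 2603.8 to 2844.8 on the MSC-only arrays of the same numbers. By a principal component analysis without the member probe sets, the arrays fell on 2 sides of a first component that held 21.6% of the variance, with 3 MSC-only and 3 co-culture arrays on each side. What separates the sides is not given in the labels.

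No Fc receptor, adaptor, Trem2 or Syk probe set passed the test for a difference between co-culture and MSC-only arrays. With limma on log2(signal + 16) and Benjamini-Hochberg adjustment over all probe sets, 0 of the 17 were called at an adjusted p of 0.05, against 0.00444% of all probe sets (2 of 45037). At an unadjusted p of 0.05 it was also 0 of the 17, against 4.36% of all probe sets, and the smallest unadjusted limma p of the 17 was 0.245. Without the 4 arrays numbered 3 and 4, 0 of the 17 were called, against 0.0178% of all probe sets (8 of 45037). Within either side of the component, 0 of the 17 and 0 of all probe sets were called. Of the 8 genes, each taken by its brightest probe set, 3 were higher and 5 lower in co-culture, with a median difference of -0.02 log2 units beside 0.01 over all genes. All 8 genes were bright in the MSC-only cultures as well. In such bulk RNA, more cells that express a gene and more RNA per cell cannot be told apart.

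**Figure D1:**
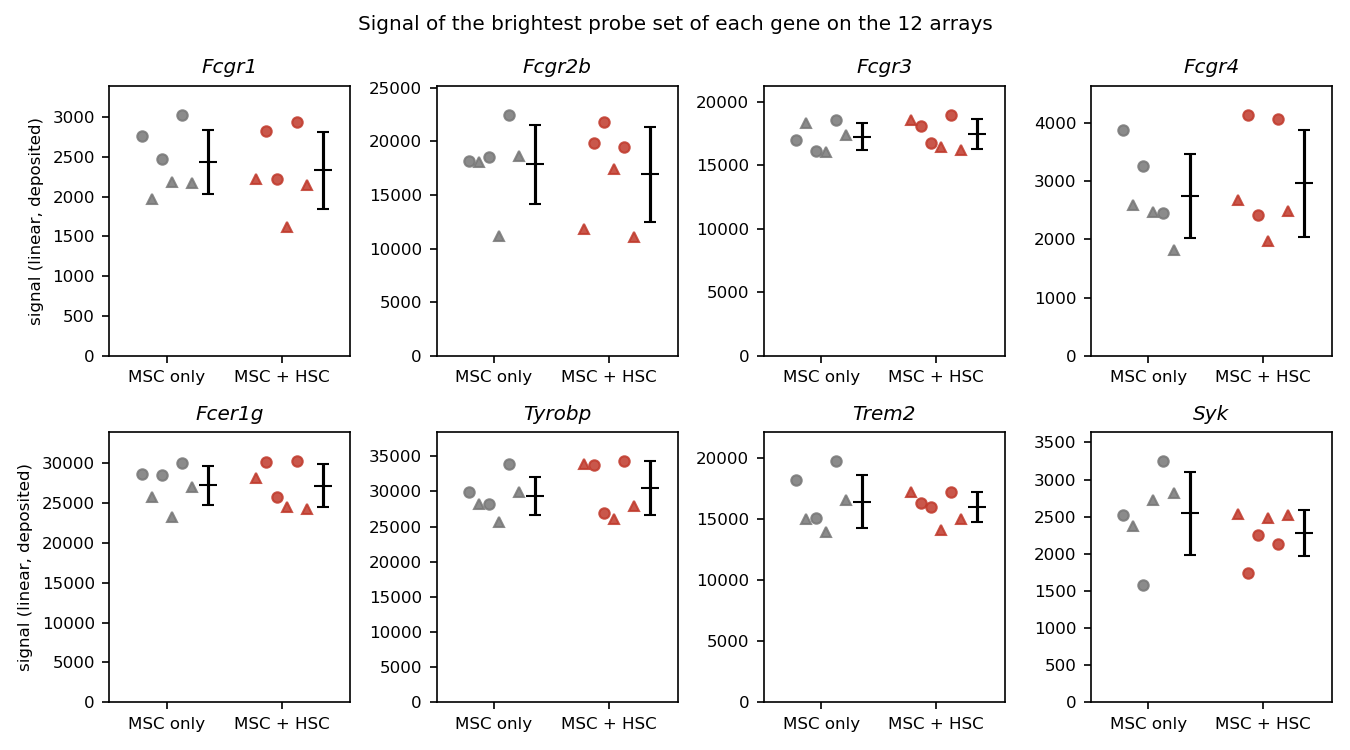
Deposited linear signal of the brightest probe set of each of the 8 genes (y axis, from 0) in the MSC-only and co-culture groups (x axis, 6 arrays each). Points are arrays, circles on the first and triangles on the second side of the first principal component, and bars give the mean ± SD; the groups overlap for every gene, and Fcgr2b has 3 arrays at 11870.4 or less.

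Among the activating receptors, Fcgr1, the high-affinity IgG receptor, had signals from 1965.7 to 3023.7 (median 2331) in MSC-only arrays and from 1617.9 to 2937.9 (median 2218) in co-culture arrays. The groups overlapped except for co-culture array 4, which lay under every MSC-only array. The difference was -0.07 ± 0.16 log2 units (SE), with a 95% interval from -0.41 to 0.27 (limma adjusted p = 1, exact permutation p = 0.662). The dimmer Fcgr1 probe set gave -0.03 ± 0.14.

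Fcgr3, the low-affinity activating receptor, was the steadiest of the 8 genes across arrays. Its signal lay between 16047.8 and 18590.3 (median 17190) in MSC-only arrays and between 16181.5 and 18952.9 (median 17430) in co-culture arrays, a ratio of highest to lowest of 1.18. Its log2 SD over the 12 arrays was 0.09, larger than that of 10.8% of the 6818 probe sets with a mean signal of at least 1000. The difference of 0.02 ± 0.08 log2 units had a 95% interval from -0.16 to 0.20 (exact permutation p = 0.727).

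Fcgr4, an activating receptor for IgG2 classes and IgE, varied much more. Signals ran from 1818.7 to 3868.6 (median 2525) in MSC-only arrays and from 1966.6 to 4132.5 (median 2585) in co-culture arrays, and 2 co-culture arrays lay above every MSC-only array. The difference was 0.10 ± 0.22 log2 units with a 95% interval from -0.38 to 0.57 (exact permutation p = 0.66). The 4 highest arrays were co-culture 2 and 5 and MSC-only 1 and 3, at 4132.5, 4066.1, 3868.6 and 3252.8, and these were also the 4 arrays with the lowest scores on the first component, from -0.341 to -0.274. The other 8 arrays lay between 1818.7 and 2681.4.

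Fcgr2b, the inhibitory receptor, was the gene with the clearest jump between arrays. MSC-only signals ran from 11219.3 to 22471.7 (median 18330) and co-culture signals from 11085.4 to 21767.5 (median 18460). Co-culture 6, MSC-only 4 and co-culture 1 stood at 11085.4, 11219.3 and 11870.4, while the other 9 arrays began at 17423.0. The 3 low arrays were those with the highest scores on the first component (0.338 to 0.344), and they came from both groups.

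The same 3 arrays were the lowest in all 4 bright Fcgr2b probe sets. In the second they read 5284.6 to 5515.4 against at least 8360.2 on the other arrays, in the third 5887.0 to 6744.1 against at least 10515.9, and in the fourth 5952.6 to 6683.7 against at least 10168.8. The fifth lay between 0.6 and 14.9 on all arrays and carried no usable level. Probe sets whose names end in _s_at or _x_at can share probes with related transcripts, so the Fcgr2b values are not fully independent readings. On these 3 arrays the summed signal of 14 stromal markers was also the lowest of all 12 (20629 to 22617 against at least 29898), and that of 8 HSC and progenitor markers the highest (1143 to 1430 against at most 999). Of those 8 markers 6 had means under 50, and Procr (194.5 to 1166.2) was the brightest. Their part in the Fcgr2b values was not tested.

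Between groups, Fcgr2b differed by -0.09 ± 0.21 log2 units with a 95% interval from -0.54 to 0.35 (exact permutation p = 0.751). Within the first side of the component the co-culture arrays were 0.05 log2 units higher and within the second side 0.24 lower (-0.24), neither of which was called (limma adjusted p = 1 in both). Only 1 of the 3 MSC-only arrays but 2 of the 3 co-culture arrays of the second side belonged to the low ones.

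**Figure D2:**
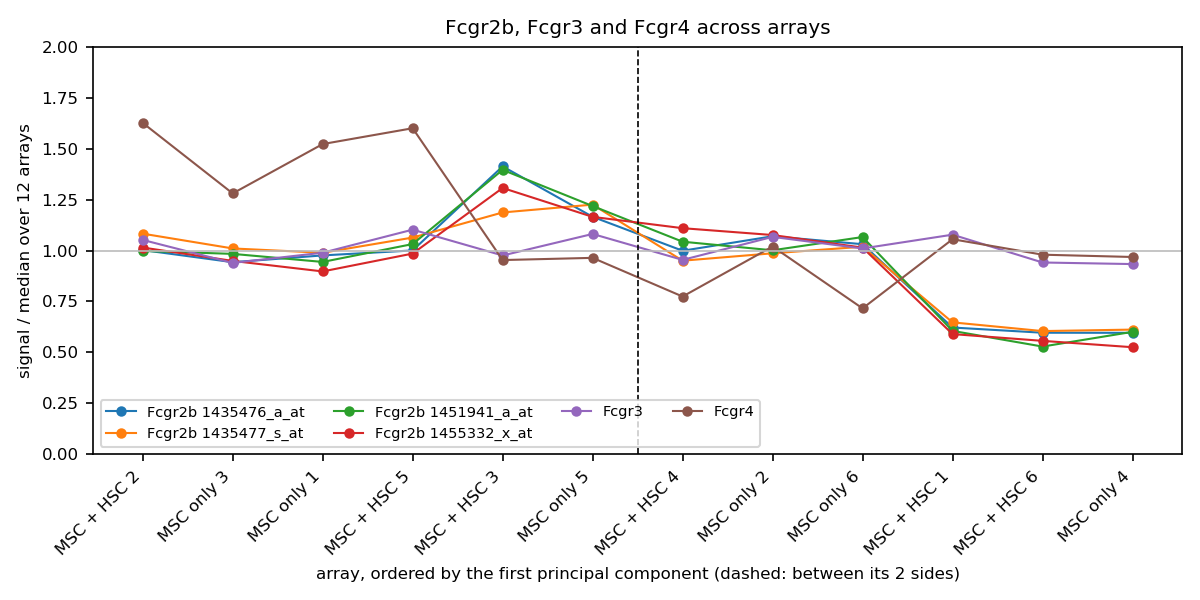
Signal of the 4 bright Fcgr2b probe sets, Fcgr3 and Fcgr4 divided by each probe set's median over the 12 arrays (y axis), with arrays ordered by their first principal component score (x axis) and a dashed line between its 2 sides. The 4 Fcgr2b probe sets drop together on co-culture 1, co-culture 6 and MSC-only 4, Fcgr4 is highest on the 4 arrays at the left, and Fcgr3 stays near 1.

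The ITAM adaptors were among the brightest genes on the arrays in both groups. Fcer1g ranged from 23247.4 to 29983.9 (median 27740) in MSC-only arrays and from 24231.1 to 30178.5 (median 26920) in co-culture arrays. Tyrobp ranged from 25597.2 to 33858.2 (median 29110) in MSC-only arrays and from 26123.1 to 34269.3 (median 30840) in co-culture arrays. The groups overlapped for both adaptors, and for each of them 2 co-culture arrays lay above every MSC-only array.

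Their group means lay close together. Fcer1g differed by -0.003 ± 0.10 log2 units with a 95% interval from -0.22 to 0.21 (exact permutation p = 0.955), and Tyrobp by 0.05 ± 0.11 with an interval from -0.18 to 0.28 (exact permutation p = 0.58). Array 4 of the MSC-only group was the lowest of all 12 for both adaptors and for Trem2. Each gene had 1 probe set.

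Trem2 lay between 13943.3 and 19707.6 (median 15830) in MSC-only arrays and between 14087.7 and 17185.6 (median 16140) in co-culture arrays, so that every co-culture array fell inside the MSC-only range. The difference was -0.04 ± 0.11 log2 units, with a 95% interval from -0.26 to 0.19 (exact permutation p = 0.686). Its second probe set read only 7.8 to 87.8 and gave 0.03 ± 0.37, an interval (-0.78 to 0.84) too wide to bear on the comparison.

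Syk, the kinase that binds phosphorylated ITAMs, ranged from 1582.8 to 3244.7 (median 2624) in MSC-only arrays and from 1741.9 to 2540.3 (median 2364) in co-culture arrays, again wholly inside the MSC-only range. The difference of -0.14 ± 0.16 log2 units (95% interval -0.49 to 0.22, exact permutation p = 0.413) was the largest of the 8 genes in size. The 3 other Syk probe sets pointed the other way, with 0.06 ± 0.08, 0.18 ± 0.15 and 0.03 ± 0.12. The 3 lowest arrays of the brightest Syk probe set were MSC-only 3 (1582.8), co-culture 2 (1741.9) and co-culture 5 (2135.7), all 3 of them among the 4 arrays where Fcgr4 was highest. The dimmer probe sets did not follow it across arrays, with r between -0.50 and 0.17 within the sides of the component, so Syk rests on readings that disagree.

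**Figure D3:**
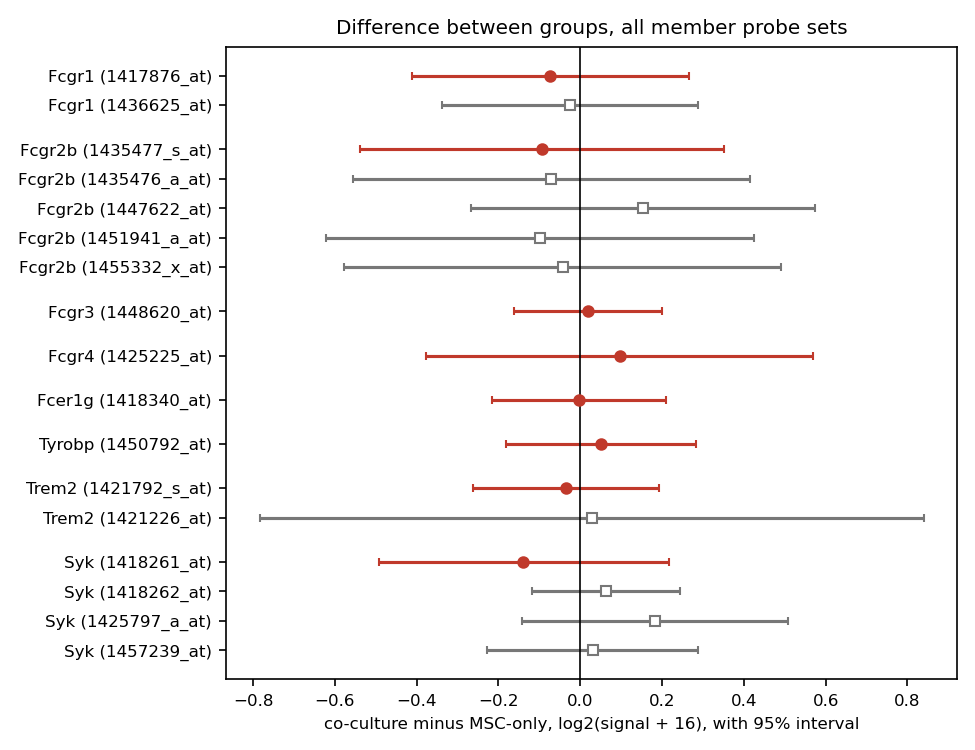
Difference between groups (co-culture minus MSC-only) in log2(signal + 16) on the x axis for each of the 17 probe sets (y axis), with 95% intervals from limma. Filled circles mark the brightest probe set of a gene and open squares the others; all 17 intervals cross 0, and the widest belongs to the dim second Trem2 probe set.

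Co-variation of the 8 genes was taken within each side of the first component (6 arrays each), because a correlation over all arrays would mix the sides. Of the 28 pairs, 23 had a positive Pearson r on the first side (median 0.42) and 21 on the second (median 0.26). After Benjamini-Hochberg adjustment over the 28 pairs, 0 pairs passed 0.05 on the first side and 2 on the second, and at an unadjusted exact permutation p under 0.05 it was 5 and 4 pairs. With 6 arrays the smallest p that permutations can give is 0.00139. The share of such pairs among other genes was not computed, so these counts do not show co-variation particular to the 8 genes.

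The pairs that passed joined Tyrobp with its receptor and with the other adaptor. On the second side Tyrobp and Trem2 had r = 0.97 (exact permutation p = 0.00139, adjusted p = 0.0389) and rho = 1.0 (exact p = 0.00278, adjusted p = 0.0778), and r = 0.98 without the 2 farthest arrays. On the first side the same pair had r = 0.56 and rho = 0.66 (exact permutation p = 0.25 and 0.175), and there r was -0.18 without the 2 farthest arrays. Trem2 rests here on its bright probe set, whose name ends in _s_at, so it can share probes with related transcripts. The dim Trem2 probe set had r = 0.66 with the bright one on the first side and -0.24 on the second. Tyrobp and Fcer1g had r = 0.94 on the second side (exact permutation p = 0.00278, adjusted p = 0.0389; rho = 0.94, exact p = 0.0167, adjusted p = 0.117) and 0.92 on the first (exact p = 0.00278, adjusted p = 0.0519; rho = 0.94, exact p = 0.0167, adjusted p = 0.156), and 0.85 and 0.98 without the 2 farthest arrays.

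Both adaptors had a positive r with the brightness of the array, taken as its 99th percentile of signal (13128 to 14901). For Fcer1g it was 0.89 on the first side (exact permutation p = 0.00139) and 0.71 on the second (exact permutation p = 0.108). For Tyrobp it was 0.88 (exact permutation p = 0.00556) and 0.85 (exact permutation p = 0.0389). Trem2 had 0.23 and 0.82. This did not follow the level of a gene, since the dimmer Fcgr1 had 0.81 and 0.65 and the bright Fcgr2b -0.29 and -0.39. After quantile normalization, which makes all arrays alike in their distribution, r between Tyrobp and Fcer1g was 0.32 on the first side and 0.24 on the second, whereas Tyrobp with Trem2 was 0.38 and 0.96. Fcer1g with Fcgr2b went from -0.18 and 0.29 to 0.95 and 0.91. The order in which the adaptors went with the other genes therefore depended on how the arrays were scaled.

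Fcgr2b and Fcgr4 ran in opposite directions on both sides, with r = -0.78 on the first (exact permutation p = 0.0917) and -0.64 on the second (exact permutation p = 0.254), and -0.92 and -0.62 after quantile normalization. Neither passed the test, rho was only -0.43 and -0.37 (exact permutation p = 0.419 and 0.497), and without the 2 farthest arrays r on the first side turned to 0.61. The Fcgr2b values of the second side were 3 low and 3 high arrays, so r with Fcgr2b there compares those sets rather than a gradient. The r of Syk with the 7 other genes was positive for 6 on the first side (median 0.38) and for 4 on the second (median 0.02). Its highest was with Trem2 on the first side, r = 0.92 (exact permutation p = 0.0153, adjusted p = 0.107; rho = 0.83, exact p = 0.0583), and 0.98 after quantile normalization, 0.61 without the 2 farthest arrays, and 0.21 on the second side (exact permutation p = 0.693).

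**Figure D4:**
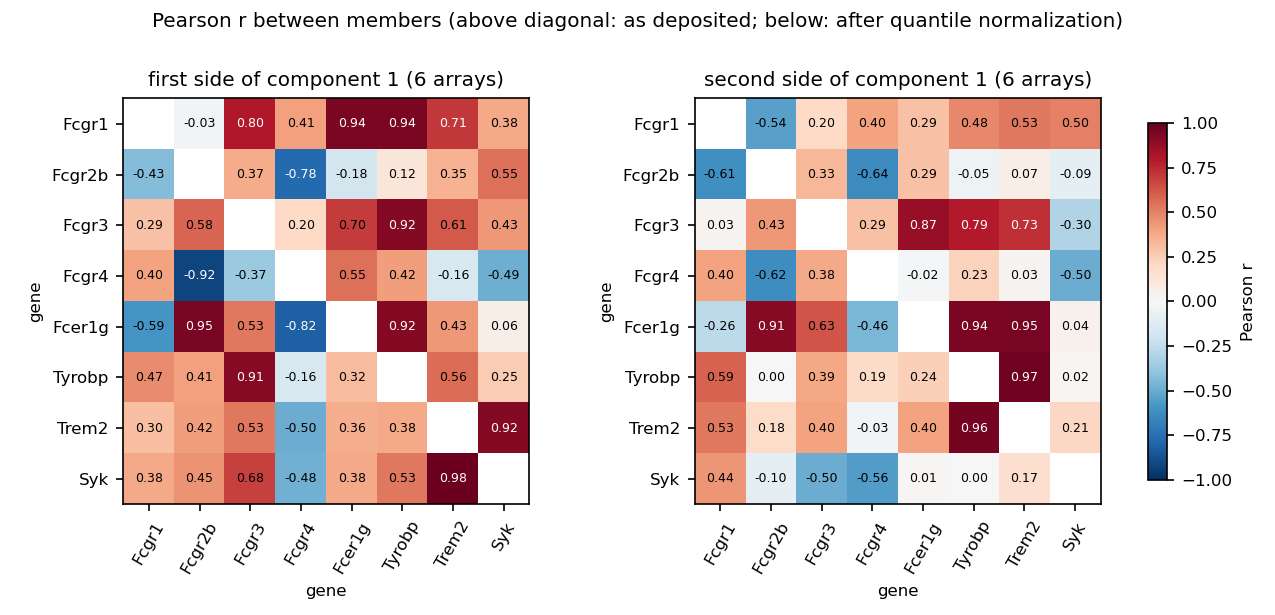
Pearson r between the 8 genes (both axes) over the 6 arrays on each side of the first principal component, coloured from -1 to 1. Cells above the diagonal use log2(signal + 16) as deposited and cells below it the quantile-normalized values; Tyrobp with Trem2 on the second side is 0.97 above and 0.96 below, while Tyrobp with Fcer1g falls from 0.94 to 0.24.

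For each member, the genes with the most similar pattern were ranked by Pearson r over all 12 arrays among 8751 genes with a mean signal of at least 200. They are listed as a description, with r within the first and second sides for the first-ranked gene of each member. The ranking itself mixes the sides. Some lower-ranked genes were uneven between sides, such as Ttc39b with Fcgr1 (0.93 and 0.56) and Rgl2 with Syk (0.97 and 0.60). Others were even, such as Ctsb with Fcer1g (0.97 and 0.98). Fcgr2b went most with Kif3a (0.98 and 0.99), followed by Tmem86a and Eps15. Fcgr4 went with Glce (0.92 and 0.80), Lsm3 and Stom, and Fcgr1 with Dnajc12 (0.69 and 0.95), Ext2 and Ttc39b.

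Fcgr3 went with Bloc1s3 (0.82 and 0.96), and next with Lamp2 and Ms4a7, a lysosomal membrane protein and a tetraspan protein of macrophages. Ms4a7 was also second for Trem2, after Tpp1, a lysosomal protease (0.87 and 0.89), and before Iscu. Tyrobp went with Cybb, the phagocyte oxidase subunit gp91phox (0.93 and 0.92), Dazap2 and Atp5h. The genes nearest to Fcer1g were Akr1a1 (0.98 and 0.95), Ctsb and Tmsb4x, each with a mean signal of at least 35770, and those nearest to Syk were Chmp1b (0.96 and 0.29), Rgl2 and Trip11.

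The rest of the pathway was followed in lists written from textbook knowledge. In none of the 7 pathway lists, with 5 to 29 measured genes each, was a gene called at an adjusted p of 0.05 (limma). An unadjusted p under 0.05 was found for 2 genes in all, Trem3 and Fyn, while 4.36% of all probe sets had one. Of a list of other Fc receptors and relatives, which also holds the complement lectin Fcna, 12 of 15 were measured, 5 higher and 7 lower in co-culture (median difference -0.02). The brightest were Fcrls (3995.2 to 13372.8 over both groups), Fcgrt, the neonatal Fc receptor (1796.4 to 4459.7), and Trim21, the cytosolic antibody receptor (643.4 to 790.9). Fcer1a and Ms4a2, the other subunits of the IgE receptor that Fcer1g is named for, had mean signals under 50.

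Among 21 measured receptors that pair with Tyrobp or Fcer1g, signal with their help or are related to such receptors, 12 were higher and 9 lower (median 0.06). Csf1r (22597.7 to 39488.9), the macrophage growth factor receptor, and the C-type lectins Clec4d (18757.3 to 31526.0) and Clec7a (8026.9 to 17402.0) were the brightest. Trem3, a relative of Trem2, stood at percentile 46.8 of signal and read 32.4 to 74.0 in MSC-only arrays and 70.8 to 98.0 in co-culture arrays. The difference was 0.51 ± 0.16 log2 units (limma unadjusted p = 0.00801, adjusted p = 1), and 5 co-culture arrays lay above every MSC-only array. Clec4e, the mycobacterial glycolipid receptor, differed by -0.35 ± 0.18 (unadjusted p = 0.0707, adjusted p = 1).

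Other signaling adaptors and receptor chains were dim, with 5 of 7 under a mean of 50. Hcst, the adaptor DAP10, which carries a phosphoinositide 3-kinase motif rather than an ITAM, was the brightest at 564.9 to 850.3, and the T cell receptor chains Cd3d and Cd3g read at most 47.6 and 39.2. In this list 6 genes were higher and 1 lower (median 0.10). Of 5 measured Src family kinases, which phosphorylate ITAMs, 3 were higher and 2 lower. Fyn read 635.4 to 900.2 in MSC-only arrays and 589.2 to 703.6 in co-culture arrays (-0.21 ± 0.10, unadjusted p = 0.0497, adjusted p = 1).

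Of a list of ITAM effectors and the Syk relative Zap70, 29 of 30 genes were measured, 14 higher and 15 lower (median -0.02). The adaptor Blnk (6380.5 to 8483.9), the kinase subunit Pik3cd (9898.0 to 16813.1) and the GTPase Rac1 (7162.8 to 8037.2) were the brightest, and the smallest p-values belonged to Shc1 (-0.16 ± 0.09, unadjusted p = 0.0913) and Sos1 (0.22 ± 0.13, unadjusted p = 0.117). Of 22 measured inhibitory receptors and phosphatases 9 were higher and 13 lower (median -0.01). Sirpa, the receptor for the CD47 signal, read 14283.9 to 19371.4, Cd300a 4575.3 to 9064.4 and Pirb 2281.9 to 4997.8 over both groups.

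A list of ligands and sheddases of Trem2 and of microglial genes linked to it was bright in the middle: the median gene of the 23 measured stood at the 99th percentile of signal on the array. The microglial genes Cx3cr1, P2ry12 and Tmem119 were dimmer, at percentiles 59.3, 66.2 and 56.2. Fabp5 (41549.4 to 66711.6), Gpnmb (28863.0 to 50208.7) and Lpl (25271.2 to 42760.2), genes of lipid handling and of lysosomes, led the list. Of the 23 genes 12 were higher and 11 lower (median 0.01). Csf1, the ligand of Csf1r, differed by -0.22 ± 0.12 (unadjusted p = 0.0996) and Clu, a lipoprotein that binds Trem2, by 0.56 ± 0.34 (unadjusted p = 0.122).

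Marker lists of the other cells that carry these receptors were lower in signal. Of 5 measured NK cell markers 4 had a mean under 50, of 9 neutrophil and granule markers 7, and of 7 mast cell and basophil markers 5. Of 5 measured B cell markers 2 had a mean under 50 (Ms4a1 and Pax5), and Cd22 was the brightest at 210.1 to 395.8. Of 7 osteoclast markers 3 had means under 50 (Calcr, Dcstamp and Ocstamp), Acp5 read 5.3 to 458.7, Mmp9 156.4 to 385.5, Ctsk 469.5 to 851.1 and Atp6v0d2 10476.8 to 19147.9.

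No gene of these marker lists or of the macrophage and stromal lists was called. Among 15 macrophage markers 6 were higher and 9 lower in co-culture (median -0.02). Of 9 neutrophil and granule markers 7 were higher and 2 lower (median 0.23), with dim readings for Cxcr2 (2.8 to 17.8 in MSC-only and 13.8 to 44.4 in co-culture arrays, limma unadjusted p = 0.00184, adjusted p = 0.734) and Elane (11.8 to 41.7 and 17.2 to 62.8, unadjusted p = 0.0149, adjusted p = 1). Of 14 stromal markers 5 were higher and 9 lower (median -0.25), and Postn, a matrix protein, read 3928.6 to 8641.8 and 2375.8 to 4532.8 (-0.62 ± 0.20, unadjusted p = 0.00983, adjusted p = 1). Lum, with a mean signal under 50, went the other way, at 4.5 to 62.3 and 26.5 to 179.8 (1.03 ± 0.40, limma unadjusted p = 0.0237). Beside them the median over all genes was 0.01. Lyz2 (26297.8 to 45144.3), Ctss (29705.3 to 43804.6) and Csf1r were the brightest macrophage markers.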

How the data were processed

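Total RNA of 12 samples, 6 per group, was hybridized to Affymetrix GeneChip arrays for mouse. Signal extraction was done by the authors in the GeneChip Operating Software. The deposited table holds probe set intensity on a linear scale, and its 2% trimmed mean lay between 496.6 and 497.3 on every array. How probes were summarised and the scaling target are not given in the sources consulted. The number of arrays limits the precision.

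Groups and replicate numbers came from the labels. Probe sets with 1 symbol were named (34945 of 45037, with 932 carrying several symbols and 9160 none here), and the brightest probe set on average stood for a gene with several, the others being given too for the members. The members and lists were chosen with earlier results of these data known. From each list the up to 3 brightest genes and the up to 2 with the smallest p were set out to be named. Not all of these are named here, and some genes beyond these were named after their values were seen. Intensities were analysed as log2(signal + 16) with the lmFit and eBayes functions of limma 3.58.1 (R 4.3.3; unpaired, no filter, Benjamini-Hochberg over all probe sets, threshold 0.05), after the code had been tested on simulated data. Exact two-sided permutation tests covered all arrangements of 6 against 6 arrays (924). Pearson and Spearman correlations had exact permutation p-values over 6 arrays. The alternatives were other scalings, added constants, a filter, blocks, covariates and left-out arrays.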

Additional observations from a re-analysis of the deposited data

How the results depend on the processing

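None of the 8 genes was called under any of 232 alternatives over the 8 genes, where the smallest adjusted p was 0.8 (limma or, for the methods' t-test, Benjamini-Hochberg over all probe sets), and 199 kept the sign. The other 33 turned it. Without the arrays numbered 3 and 4, Fcgr1 was 0.038 and Fcer1g 0.013, while Fcgr2b moved from -0.094 to -0.358, Fcgr4 from 0.096 to 0.33 and Syk from -0.139 to -0.30. With the sex-linked signal class (Xist or Y-linked genes higher) as a covariate, Fcgr2b was 0.18, Fcer1g 0.07, Trem2 0.13 and Syk 0.12. All co-culture arrays but only MSC-only 3 and 4 were of the Xist class. These values therefore compare the co-culture arrays with MSC-only 3 and 4 alone. Fcgr3 was -0.013 under quantile normalization and -0.021 with median centring, and Fcer1g 0.007 with centring on the 75th percentile. Syk was 0.034 as the mean of its probe sets. Within the first side Fcgr2b was 0.053, and within the second Fcgr3 was -0.019, Fcer1g 0.013 and Trem2 0.021. Within the arrays numbered 3 and 4, 2 against 2, Fcgr2b was 0.43, Fcgr4 -0.37, Tyrobp -0.021, Trem2 0.047 and Syk 0.185 (the side and within-array values were chosen after seeing the data). Leaving out 1 array gave Fcgr1 -0.145 to 0.026, Fcgr2b -0.222 to 0.018, Fcgr3 -0.004 to 0.041, Fcgr4 -0.013 to 0.203, Fcer1g -0.047 to 0.028 and Trem2 -0.08 to 0.019, while Tyrobp and Syk kept their sign. Leaving out co-culture 6, one of the 3 arrays with low Fcgr2b, was what turned its sign.

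Over all probe sets, 2 were called. The count was 1 after quantile normalization, centring on the median or the 75th percentile, a constant of 1, the methods' t-test or the side as a covariate. It was 0 with a constant of 64, the filter (26341 probe sets), trend and robust, or the fixed replicate block. It was 8 without the arrays numbered 3 and 4, and 0 to 4 leaving out 1 array, with 0 without MSC-only 1 or co-culture 3 and 4 without MSC-only 6. Same-numbered arrays did not all deviate together (r from -0.16 to 0.15), so the numbers were not taken to pair the arrays. The arrays numbered 3 and 4 lacked Y-linked signal in both groups, a hint from the data and not the design. The replicate block changed no call of a member. Of the pairs of members, 1 passed on the first side and 0 on the second after quantile normalization, and 0 on either side after group means were removed. The cause was not tested. The 95% intervals reached at most 0.28 log2 units from 0 for Fcgr3, Fcer1g, Tyrobp and Trem2 and 0.57 for the other genes. Differences within each interval remain possible. The intervals do not give the size that a call needs after adjustment over all probe sets. The dim Cxcr2, for 1, differed by 0.79 log2 units and was not called (limma adjusted p = 0.734).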
